A study of Sorghum bicolor with 12 samples.

Results

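Internode 3 (Int3), which had nearly finished its elongation, was compared with internode 1 (Int1), the youngest internode below the shoot apex, in vegetative stems of bioenergy sorghum. The members of the comparison were the transcripts with a mean RPKM (the reads of a transcript divided by its length and by the depth of its library) of at least 1 in Int1 or in Int3, and 25338 of the 47205 transcripts in the table met this rule. They came from 19595 loci. Of these members, 21155 reached the level in both internodes, 2079 in Int1 only and 2104 in Int3 only.

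RNA-seq libraries had been made from 4 successive internodes of the inbred R.07020, grown in a growth chamber under 14-h days and harvested 60 days after planting, with 3 libraries for each internode. Int1 and Int3 therefore shared genotype, plant age and growth conditions, and differed in their position on the stem and in their stage of elongation, which cannot be told apart in this design. The methods of the study name 3 plants as the source of all 4 internodes, but the labels do not tie a library to a plant. No treatment was applied, and the values describe 1 genotype at 1 age.

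A grass internode grows from cells that divide and then lengthen. Cells of the xylem and of the fibres around the vascular bundles finally lay down a thick secondary wall. The study proposes that division is spread through young internodes and stays near the base once they elongate. Growing cells are wrapped in a thin primary wall of cellulose, xyloglucan, arabinoxylan and pectin, which expansins and xyloglucan endotransglucosylase/hydrolases (XTH) remodel. Cells that have stopped growing add cellulose, glucuronoarabinoxylan and lignin, a phenolic polymer made from phenylalanine.

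The values of a library summed to between 467612 and 502836 RPKM in the 6 libraries. Counted reads and transcript lengths were not used here, and the reads behind a single value are unknown. From the spacing of low values, the depth relative to Int1 replicate 1 was 1.03 and 0.911 in the other Int1 libraries and 0.835 to 0.867 in the Int3 libraries. The median standard deviation of the log2 values over members was 0.151 in Int1 and 0.204 in Int3. Int3 replicate 3 stood farthest from Int1: it held the highest of the 3 Int3 values for 60.0% of the transcripts that rose and for 10.3% of those that fell. Counts without this library are given where they change a statement. In bulk tissue, fewer cells of a type and less RNA per cell cannot be told apart.

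Of the 25338 members, 2371 (9.36%) were higher in Int3 and 2440 (9.63%) were lower, together 4811 (19.0%). A transcript was called where limma on log2(RPKM + 0.5), fitted to all 12 libraries, gave a Benjamini-Hochberg adjusted p under 0.001, the log2 fold change was 1 or more in size and the mean RPKM reached 2 in either internode. In each of the 4811 called transcripts the 3 Int3 values lay wholly above or wholly below the 3 Int1 values. The limits of a call make such a separation likely, so it is not separate evidence of change. Without Int3 replicate 3, the counts were 2021 higher and 1846 lower. At an unadjusted p under 0.05 there were 15374 members.

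The rises were larger than the falls. The median log2 fold change was 1.89 among the transcripts called higher and -1.56 among those called lower, and 419 rises against 182 falls reached 3 in size on the log2 scale. At 5 or more there were 51 rises, up to 7.0, and 0 falls, the lowest fold change being -4.56. The fold changes of low transcripts are understated on the log2(RPKM + 0.5) scale.

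The median transcript called higher went from a mean RPKM of 2.97 in Int1 to 16.1 in Int3, and the median transcript called lower from 15.9 to 4.39. Together the risen transcripts took 5.24 to 5.68% of the summed RPKM of an Int1 library and 19.2 to 22.8% of an Int3 library. The fallen transcripts took 20.5 to 22.2% in Int1 and 5.96 to 7.68% in Int3.

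The log2 fold change lay within 0.5 of 0 for 11805 members (46.6%), and the median over all members was -0.0988. When the libraries were rescaled by their median ratios, this median moved by 0.124 to 0.025, and the calls became 2673 higher and 2004 lower, so that 57.2% of calls were rises in place of 49.3%. The balance between rises and falls therefore depends on the scaling. The share called also grew with the level of the transcript, from 8.6% higher and 7.95% lower at a mean RPKM of 2 to 5 in the higher internode to 19.5% and 25.2% at 100 or more. A further 1946 members differed by at least 1 on the log2 scale without a call. By rule no call was possible for the 4194 members with a mean RPKM of 1 to 2 in the higher internode. These 4194 are counted in the shares over all members.

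**Figure D1:**
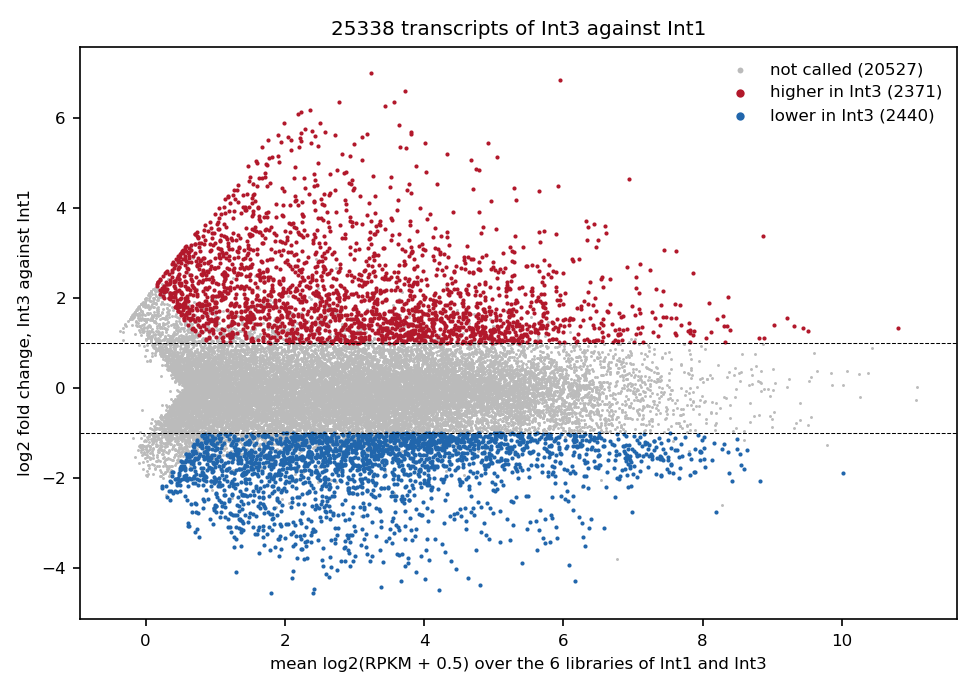
Log2 fold change of Int3 against Int1 (vertical axis) against the mean of log2(RPKM + 0.5) over the 6 libraries (horizontal axis) for the 25338 members, with 2371 called higher in red, 2440 called lower in blue and the others in grey, and dashed lines at a fold change of 1 and -1 on the log2 scale. The red points reach 7.0, while the lowest blue point is at -4.56.

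Most of the 20 transcripts at the ends of this range carried no annotation in the sources used here and are given by identifier. Sobic.007G223600.1, on chromosome 7, had the largest rise, from RPKM values of 0.21, 0.61 and 0.23 in the Int1 libraries to 80.7, 91.4 and 162 in the Int3 libraries (log2 fold change 7.0 ± 0.42 SE, adjusted p = 2.13e-07). Sobic.005G050200.1, on chromosome 5, rose from 4.58, 9.58 and 3.24 to 666, 714 and 614 (6.85 ± 0.34, adjusted p = 6.96e-08). Its mean was 311 in Int2 and 307 in Int4, so that its highest level was in Int3. Both were scarce in each Int1 library and among the abundant transcripts of each Int3 library.

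The only annotated transcript among the 10 largest rises was Sobic.004G225100.1, similar to a nitrilase, an enzyme that hydrolyses nitriles. It was listed at 0, 0 and 0.05 in Int1 and at 26.4, 30.5 and 34.2 in Int3 (5.89 ± 0.17, adjusted p = 2.94e-09), and its mean reached 61.3 in Int4. In Sobic.001G394100.1, another of the 10, the Int3 libraries differed among themselves, at 54.6, 63.8 and 16.9, against at most 0.12 in Int1. The remaining large rises, from 6.09 to 6.61 on the log2 scale, ended at mean RPKM values of 38.2 to 132 in Int3.

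Among the falls, Sobic.001G479600.1 dropped from 27.7, 22.7 and 25.4 in Int1 to 0.95, 0.83 and 0.17 in Int3 (-4.56 ± 0.38, adjusted p = 1.84e-06). Sobic.002G360900.1 dropped from 19.4, 15.7 and 14.3 to 0.27, 0.13 and 0.27 (-4.55 ± 0.25), and was already at a mean of 1.07 in Int2. Sobic.004G064000.1, similar to the Arabidopsis CER3 protein of cuticular wax synthesis, dropped from 26.2, 25.6 and 22.9 to 0.51, 0.76 and 0.66 (-4.48 ± 0.18, adjusted p = 2.47e-08) and stood at 8.05 in Int4. Each of the 3 was low in all Int3 libraries. Sobic.008G079800.1 had the highest starting level of the 10, at 396, 293 and 273 in Int1, and fell to 14.6, 21.1 and 12.6 in Int3 (-4.29 ± 0.67, adjusted p = 0.0002), a call that was lost without Int1 replicate 1, Int3 replicate 1 or Int3 replicate 3.

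**Figure D2:**
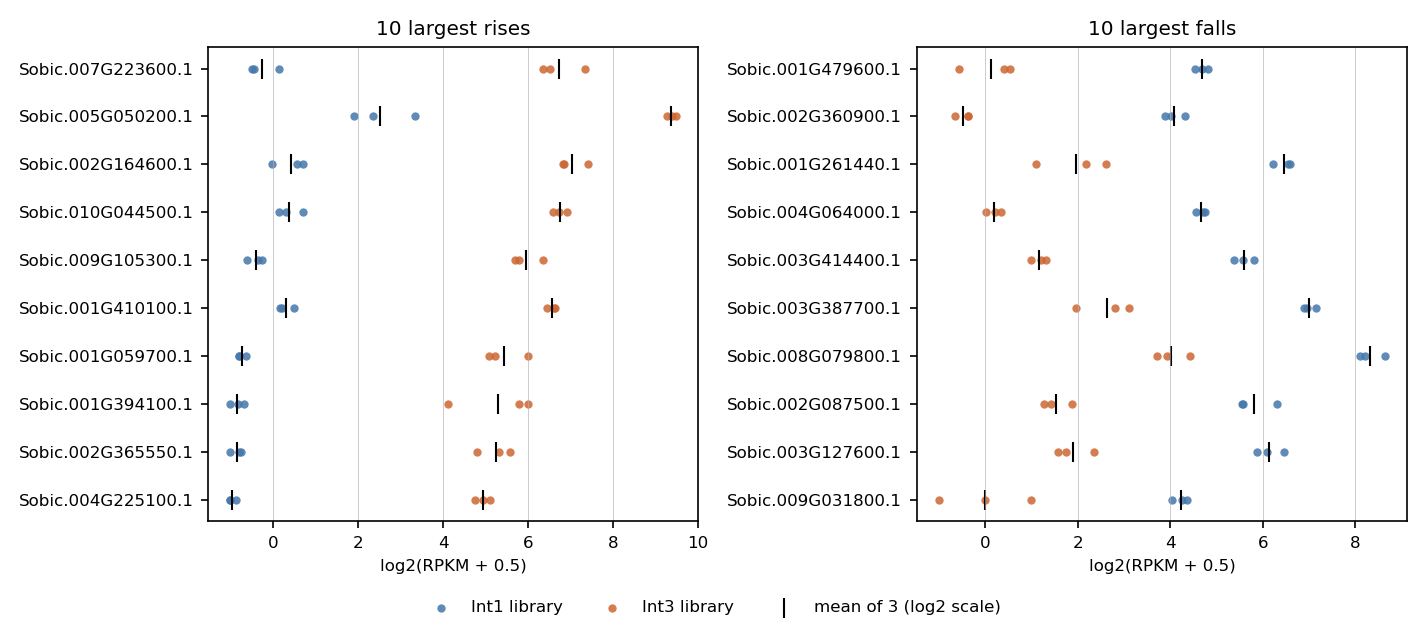
Values of log2(RPKM + 0.5) in each library for the 10 largest rises (left) and the 10 largest falls (right), with Int1 libraries in blue, Int3 libraries in orange and a black bar at the mean of 3. In all 20 transcripts, as in every called transcript, the Int1 and Int3 points are apart, and Sobic.005G050200.1 ends highest.

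Functional categories were taken from a copy of the study's MapMan table, which names 770 transcripts, 746 of them members here, and stops within the flavonoids. Hormones, transcription factors and the cell cycle come later in that table and are not analysed here. The study selected the table from transcripts that differed between these same libraries, so the counts of every list below are not independent evidence of change: 277 of the 746 (37.1%) were higher and 147 (19.7%) lower, against 9.36% and 9.63% of all members, and their median log2 fold change was 0.83. The 24592 members outside the table held 2094 of the rises and 2293 of the falls. The 34 lists below carry no test of their own. In every list but the isoprenoids, the summed RPKM did not overlap between the Int1 and Int3 libraries. A sum without overlap therefore sets no list apart.

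Cellulose synthases (CESA), which extrude the glucan chains of cellulose at the plasma membrane, rose in Int3 in both their primary-wall and their secondary-wall forms. Of 16 members of the list, which includes the related CSLD proteins, 10 were higher and 2 lower, with a median log2 fold change of 1.23. Their summed RPKM was 825 ± 30.3 (SD, n = 3) in Int1 and 2682 ± 243 in Int3, 3.25 times as high, and no Int1 library overlapped an Int3 library.

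The secondary-wall forms rose most. Sobic.003G296400.1, similar to an Arabidopsis cellulose synthase of the secondary wall, went from 3.81, 4.34 and 4.2 in Int1 to 172, 167 and 277 in Int3 (5.44 ± 0.38, adjusted p = 5.11e-07). Sobic.002G205500.1, similar to the xylem-specific form, went from 3.09, 4.2 and 4.52 to 133, 121 and 201 (5.08 ± 0.39, adjusted p = 1.11e-06). Sobic.001G224300.1, similar to the remaining Arabidopsis secondary-wall form, went from 3.53, 4.82 and 5.17 to 128, 123 and 187 (4.86, adjusted p = 9.37e-07). In Arabidopsis these 3 forms make up the secondary-wall complex together, and all 3 sorghum transcripts were highest in Int3 replicate 3 and about equal in the other Int3 libraries.

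The primary-wall forms were already abundant in Int1 and rose less. Sobic.009G063400.1, similar to CESA1, went from 150, 150 and 144 to 364, 323 and 348 (1.22 ± 0.10, adjusted p = 1.62e-06). Sobic.002G075500.1, similar to CESA3, went from 111, 112 and 102 to 327, 301 and 329 (1.55 ± 0.12, adjusted p = 8.45e-07). Sobic.001G021500.1, similar to CESA6, went from 131, 132 and 127 to 275, 290 and 329 (1.19 ± 0.11, adjusted p = 3.03e-06). The replicates of these primary-wall forms lay close together in both internodes. The most abundant cellulose synthase of Int3 was Sobic.002G118700.1, of the CESA6-related group, at 59.4, 60.8 and 84.5 in Int1 and 553, 536 and 600 in Int3 (3.05 ± 0.14, adjusted p = 5.06e-08). Reads of this locus could be divided with its other transcripts, Sobic.002G118700.2 and Sobic.002G118700.3, which had log2 fold changes of 1.09 and 1.47 without a call.

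Against this trend, Sobic.008G125700.1, of the CSLD group of cellulose synthase-like proteins, fell from 29.1, 33.6 and 43.6 to 2.89, 2.02 and 1.24 (-3.85, adjusted p = 3.03e-06). The other called fall belonged to Sobic.002G333800, also of the CSLD group and the only locus of 188 with at least 2 called transcripts whose calls went in opposite directions. Its transcript Sobic.002G333800.1 fell from 5.17, 4.46 and 5.39 to 1.42, 1.34 and 1.46 (-1.53 ± 0.19, adjusted p = 3.72e-05). Sobic.002G333800.2 of the same locus rose from 0.47, 0.69 and 0.22 to 11.1, 8.76 and 10.1 (3.48 ± 0.26, adjusted p = 7.82e-07). How the alignment divided reads between the 2 transcripts was not tested.

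**Figure D3:**
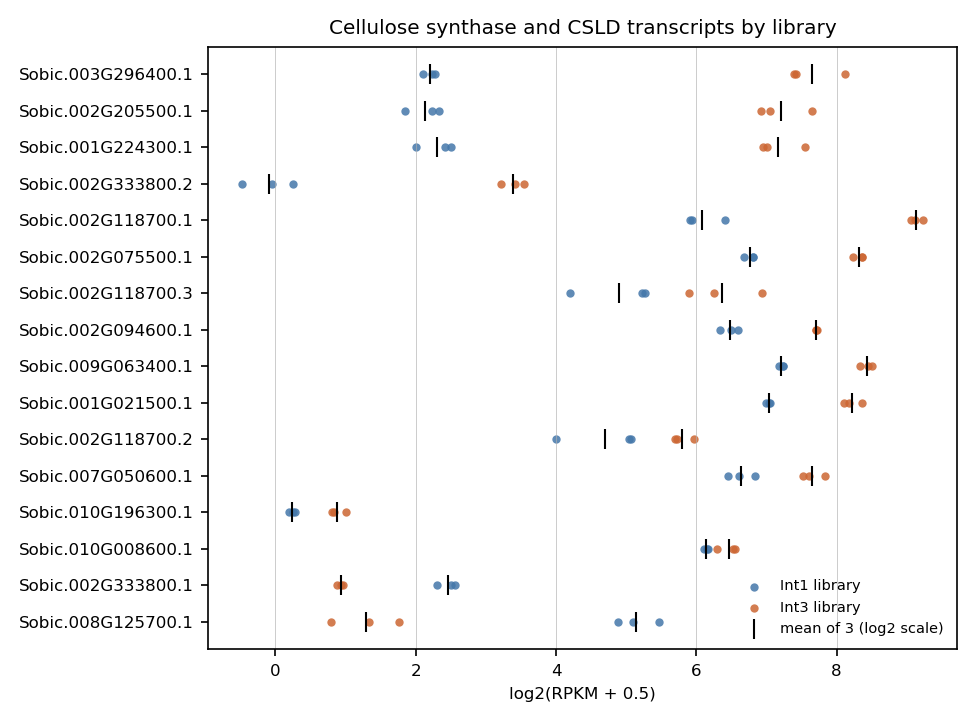
Values of log2(RPKM + 0.5) in each library for the 16 cellulose synthase and CSLD members, ordered by log2 fold change from 5.44 at the top to -3.85 at the bottom, with Int1 libraries in blue, Int3 libraries in orange and a black bar at the mean of 3. The secondary-wall forms at the top start low in Int1, the primary-wall forms start high, and the 2 lowest rows run the other way.

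Of 5 COBRA proteins, which are anchored at the outer membrane face and help to orient cellulose microfibrils, 4 were higher and 0 lower (median log2 fold change 1.69). Sobic.001G336700.1, similar to the Arabidopsis COBRA-like protein of the secondary wall, went from 1.04, 0.67 and 0.59 to 54.9, 51.9 and 73.4 (5.58 ± 0.43, adjusted p = 1.01e-06). Sobic.001G086200.1, similar to COBRA itself, went from 155, 163 and 138 to 377, 366 and 346 (1.26 ± 0.11, adjusted p = 1.99e-06). As with the cellulose synthases, the secondary-wall member started scarce and the other started abundant. Sobic.001G099100.1, similar to the membrane-bound glucanase KORRIGAN that acts in cellulose synthesis, went from 137, 138 and 129 to 343, 356 and 407 (1.45 ± 0.11, adjusted p = 9.73e-07). In the list that holds KORRIGAN with the mannan and xyloglucan backbone synthases CSLA and CSLC, 5 of 12 members were higher and 2 lower, and the most abundant mannan synthase, Sobic.004G075900.2, was at 165, 175 and 172 in Int1 and 181, 159 and 128 in Int3 (-0.14 ± 0.20, adjusted p = 0.569).

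Xylan is the main hemicellulose of grass walls. In the hemicellulose list, 5 of the 8 members were higher and 0 lower (median 1.91). Without Int3 replicate 3, 4 were higher and 1 lower. The category of 5 members names glucuronoxylan, and of these 3 were higher and 0 lower. The category of the other 3 names no polymer, and of these 2 were higher and 0 lower. Sobic.001G409100.1, similar to IRX9, a glycosyltransferase of the xylan backbone in Arabidopsis, went from 7.42, 8.88 and 10.02 to 57.3, 62.6 and 67.9 (2.77 ± 0.18, adjusted p = 3.76e-07). Sobic.001G479800.2, similar to a glycosyltransferase of the PGSIP family, whose Arabidopsis members add glucuronic acid to xylan, went from 1.14, 2.45 and 1.76 to 22.9, 18.8 and 24.8 (3.34 ± 0.39, adjusted p = 2.34e-05). Their mean RPKM values in Int4 were 109 and 32.5, and the Int4 values of Sobic.001G479800.2, at 45.8, 32.9 and 18.8, overlapped those of Int3.

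Transcripts of the enzymes that make the sugar nucleotides for these polymers were higher in 15 of 23 members and lower in 3 (median 1.29). Without Int3 replicate 3 the count of rises was 10. All 4 members annotated as UDP-glucose dehydrogenase (UGD), which makes UDP-glucuronic acid, and all 4 annotated as UDP-xylose synthase (UXS), which converts this to UDP-xylose, were higher, as were 4 of 5 annotated as MUR4, which makes UDP-arabinose. Sobic.001G459800.1, a UGD, went from 91.6, 93.2 and 80.2 to 275, 329 and 360 (1.85 ± 0.18, adjusted p = 5.32e-06). Sobic.001G418100.2, a UXS and the most abundant member, went from 213, 231 and 199 to 514, 460 and 608 (1.29 ± 0.21, adjusted p = 0.00027), a call lost in 5 of the 6 fits that left out a library. Of the 4 UGD transcripts, 3 belong to Sobic.001G084100, so that their rises are not separate loci. Sobic.001G084100.2 was at 178 in Int3 replicate 1 and at 56.0 and 68.4 in the other Int3 libraries.

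Lignin synthesis was the list with the most rises by count. Its share called higher, 59.0%, was below that of several smaller lists, such as the flavonoids at 65.6%. Of 39 members, 23 were higher in Int3 and 0 lower, with a median log2 fold change of 1.49, and the count was 21 without Int3 replicate 3. The summed RPKM of the list went from 693 to 752 in the Int1 libraries to 2981, 3419 and 4800 in the Int3 libraries, a ratio of means of 5.15. The Int3 libraries differed more among themselves than the Int1 libraries did.

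The first enzyme of the pathway, phenylalanine ammonia-lyase (PAL), turns phenylalanine into cinnamic acid. Sobic.004G220300.1 accounted for most of its RPKM and became the annotated transcript with the highest level in Int3: it went from 155, 146 and 134 in Int1 to 1183, 1383 and 2078 in Int3 (3.37 ± 0.30, adjusted p = 2.66e-06). Sobic.004G220400.1, a neighbour on chromosome 4, went from 68.4, 68.8 and 64.1 to 213, 240 and 260 (1.81 ± 0.12, adjusted p = 3.13e-07). The listed PAL transcripts together went from 249 ± 15.4 to 1860 ± 488 (SD, n = 3), 7.47 times as high. Reads of near-identical PAL copies could be divided between them by the alignment.

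The later steps rose by smaller factors. The listed transcripts of 4-coumarate:CoA ligase (4CL), which activates the acids, summed to 71.6 ± 2.2 in Int1 and 233 ± 58.6 in Int3, 3.25 times as high, with 5 of 12 members called higher. Hydroxycinnamoyl transferase (HCT), the shunt to the coumaroyl shikimate intermediate, summed to 39.7 ± 5.8 and 173 ± 34.8. Coumarate 3-hydroxylase (C3H), which works on that intermediate, had the smallest ratio of the 8 enzymes, 2.11, from 35.8 ± 0.93 to 75.6 ± 12.5. Its main transcript, Sobic.009G181800.1, lost its call (log2 fold change 1.05) without any 1 of the Int1 libraries and without Int3 replicate 3.

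Caffeoyl-CoA O-methyltransferase (CCoAOMT) summed to 152 ± 10.2 in Int1 and 551 ± 125 in Int3. Within it, Sobic.007G218800.1 went from 7.65, 7.99 and 7.99 to 131, 153 and 309 (4.46 ± 0.41, adjusted p = 3.88e-06), while the more abundant Sobic.010G052200.1 went from 139, 155 and 137 to 320, 356 and 382 (1.29 ± 0.15, adjusted p = 2.14e-05). Cinnamoyl-CoA reductase (CCR1) summed to 64.2 ± 1.51 and 191 ± 67.2, and cinnamyl alcohol dehydrogenase (CAD), the last reductase before export, to 14.1 ± 1.28 and 52.6 ± 15.3. In all 8 enzyme sums the lowest Int3 library was above the highest Int1 library, and Int3 replicate 3 was the highest. The 16 members without a call included Sobic.001G189300.1, of the 4CL category but similar to a peroxisomal acyl-activating enzyme of Arabidopsis, at 18.3, 16.6 and 16 in Int1 and 13.1, 13.0 and 9.85 in Int3 (adjusted p = 0.0189).

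**Figure D4:**
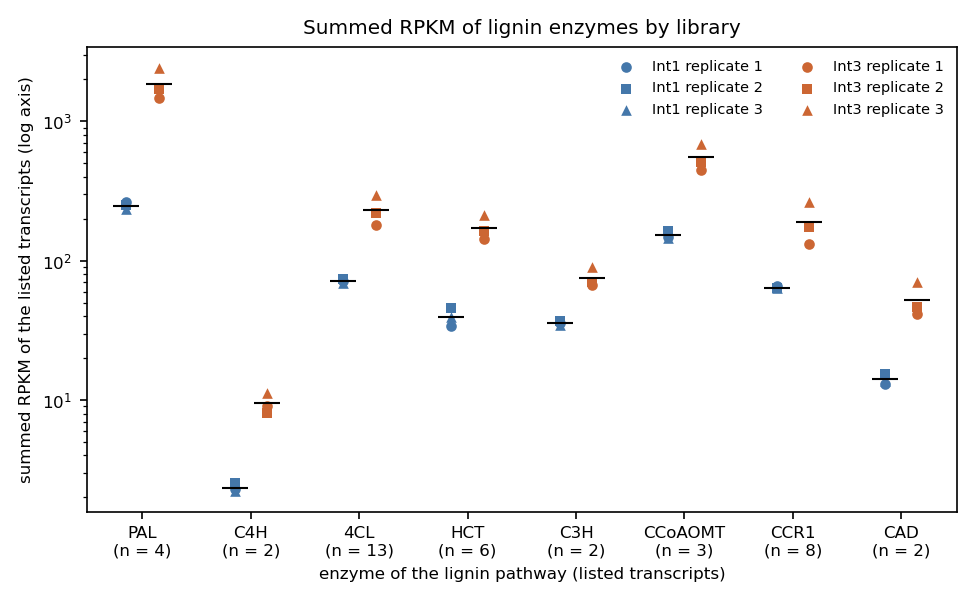
Summed RPKM (log axis) of the listed transcripts of 8 lignin pathway enzymes in each Int1 library (blue) and Int3 library (orange), with a marker shape for each replicate number, a black bar at the mean of 3 and the number of listed transcripts under each name. Every Int3 point lies above every Int1 point of its enzyme, from a ratio of means of 2.11 for C3H to 7.47 for PAL.

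Other phenylpropanoid and flavonoid transcripts had rises and no falls among their calls in the main fit. Of 18 other phenylpropanoid members, 10 were higher and 0 lower (median 1.64). Without Int3 replicate 3, 8 were higher and 1 lower, and 1 was also lower with a pseudocount of 0.1. Sobic.009G197000.1, annotated as an O-methyltransferase, went from 18.6, 12.7 and 14.7 to 167, 141 and 233 (3.50 ± 0.25, adjusted p = 5.45e-07), while Sobic.005G101900.1 of the same family was at 33.6, 45.5 and 28.5 in Int1 and 88.6, 79.4 and 70.7 in Int3 without a call (adjusted p = 0.00804), with its highest mean, 132, in Int2. Of 32 flavonoid members, 21 were higher and 0 lower (median 2.31), and 16 were higher without Int3 replicate 3. All 5 transcripts annotated as flavonoid 3'-hydroxylase, which adds a hydroxyl group to the B ring of flavonoids, were higher. The most abundant, Sobic.009G162500.1, went from 1.24, 1.74 and 1.49 to 74.7, 79.7 and 164 (5.66 ± 0.39, adjusted p = 5.14e-07) and stood at a mean of 67.5 in Int4. Most flavonoid transcripts were near the limit of membership in Int1, and their summed RPKM went from 62.6 to 77.1 in the Int1 libraries to 321, 338 and 527 in the Int3 libraries.

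Expansins, which loosen the wall of growing cells, and the XTH enzymes, which cut and rejoin xyloglucan, changed in both directions. Of 22 expansin members, 11 were higher and 4 lower (median 1.58). Sobic.006G031900.1, an alpha-expansin, went from 0.32, 0.24 and 0.55 in Int1 to 35.1, 35.1 and 35.4 in Int3 (5.37 ± 0.52, adjusted p = 5.51e-06) and was back at a mean of 1.57 in Int4. Sobic.001G300700.1, a beta-expansin, went from 0.07, 0.26 and 0.3 to 27.8, 24.97 and 43.1 (5.49 ± 0.40, adjusted p = 7.87e-07) and stayed at 33.6 in Int4. These rising expansins were almost unmeasured in Int1.

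The expansins that were abundant in Int1 moved the other way or little. Sobic.004G191600.1, a beta-expansin, fell from 43.7, 45.2 and 48.7 to 19.2, 20.4 and 15.4 (-1.31 ± 0.13, adjusted p = 5.49e-06). Sobic.001G033300.1, the most abundant of the list, was at 91.8, 118 and 127 in Int1 and 53.7, 54.1 and 61.1 in Int3 (-0.98 ± 0.12), just short of a fold change of 1, and was called without Int1 replicate 1 or Int3 replicate 3. The summed RPKM of all expansins was 384 ± 50.8 in Int1 and 450 ± 12.9 in Int3, a ratio of 1.17: the set of expansins changed far more than their total.

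The XTH list also had calls in both directions. Of 16 members, 4 were higher and 7 lower (median 0.18), with 4 lower where Int1 replicate 3 or Int3 replicate 3 was left out. Sobic.006G228100.1 fell from 266, 242 and 292 to 17.3, 20.2 and 13.7 (-3.94 ± 0.37, adjusted p = 4.27e-06), and its mean passed through 128 in Int2 to 3.39 in Int4. Sobic.002G194500.1 fell from 108, 100 and 110 to 8.06, 5.91 and 2.91 (-4.22 ± 0.65, adjusted p = 0.000173), and its call was lost without Int1 replicate 3 or Int3 replicate 3. Both were among the most abundant XTH transcripts of Int1 and were minor in every Int3 library.

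In the other direction, Sobic.010G246700.1 was the most abundant XTH transcript in both internodes, at 371, 423 and 386 in Int1 and 973, 1006 and 1083 in Int3 (1.37 ± 0.14, adjusted p = 6.68e-06). Sobic.007G090436.1 went from 5.3, 5.57 and 3.37 to 111, 121 and 242 (4.85 ± 0.41, adjusted p = 2.1e-06). The summed RPKM of the list was 894 to 950 in the Int1 libraries and 1249 to 1482 in the Int3 libraries, with Sobic.010G246700.1 as its largest member in each of the 6.

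Arabinogalactan and fasciclin-like proteins, glycoproteins at the cell surface, were also divided, with 5 of 14 higher and 6 lower (median -0.31). Sobic.003G062000.1, similar to FLA11, a fasciclin-like protein of secondary-wall-forming cells in Arabidopsis, went from 11.7, 13.0 and 12.4 to 242, 253 and 387 (4.49 ± 0.47, adjusted p = 9.42e-06). Sobic.009G056400.1, also similar to FLA11, went from 0.05, 0.42 and 0.24 to 17.4, 24.0 and 58.8 (5.36 ± 0.41, adjusted p = 1.05e-06). Sobic.004G117400.1, an arabinogalactan peptide similar to AGP16, fell from 145, 176 and 163 to 46.7, 54.5 and 41.1 (-1.76 ± 0.14, adjusted p = 1.56e-06). The FLA11-type transcripts thus rose while the most abundant arabinogalactan transcript of Int1 fell.

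Wall-degrading enzymes of the xylan and mannan type were called higher in 13 of 13 members, with log2 fold changes from 1.55 to 5.56 and a median of 2.46. Of the 13, 5 were transcripts of the locus Sobic.005G087400, between which reads could be divided, so that their rises are not separate loci. Without Int3 replicate 3, 9 of the 13 were called, and 8 were called where the mean RPKM of 2 was required over both internodes together, with the 5 transcripts of that locus all lost. Their summed RPKM went from 41.2, 48.1 and 43.6 to 256, 342 and 366, 7.26 times as high. Sobic.008G017800.1, similar to a bifunctional arabinofuranosidase and xylosidase, was the most abundant member, at 19.97, 21.7 and 21.2 in Int1 and 125, 143 and 162 in Int3 (2.74 ± 0.10, adjusted p = 2.17e-08). Sobic.001G140300.1, similar to the xylanase RXF12, went from 0.14, 0.27 and 0.12 to 28.04, 34.95 and 31.43 (5.56 ± 0.22, adjusted p = 2.31e-08). Sobic.006G205600.1, which is similar to an XTH and not to a xylosidase, spread from 32.5 to 90.3 in Int3 against 7.22 to 12.5 in Int1 (2.58 ± 0.42, adjusted p = 0.000252) and lost its call in 4 of the 6 fits without a library.

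The pectin-directed lists were balanced. Of 17 pectate lyases and polygalacturonases, 2 were higher and 2 lower (median -0.22), and both rises, Sobic.004G319600.1 and Sobic.004G319600.3, came from 1 locus. The most abundant, Sobic.001G026800.1, was at 101, 99.99 and 95.1 in Int1 and 76.9, 74.6 and 69.9 in Int3 (-0.42 ± 0.07, adjusted p = 0.000519), a difference without overlap that did not reach the fold limit. Of 19 pectin esterases, 6 were higher and 4 lower (median 0.04). Sobic.006G172000.2, a pectin methylesterase and the most abundant member in Int1, fell from 161, 145 and 155 to 29.1, 26.5 and 26.1 (-2.47 ± 0.36, adjusted p = 0.000119), and Sobic.003G094800.1, a pectin acetylesterase, rose from 1.99, 3.09 and 1.99 to 26.6, 32.1 and 33.5 (3.46 ± 0.21, adjusted p = 2.44e-07). Of 5 cellulases and beta-glucanases, 3 were higher and 2 lower. The rises were all of the GH9B8 type, and of these Sobic.004G042700.1 and Sobic.004G244600.1 were below an RPKM of 0.5 in each Int1 library and between 9.94 and 20.6 in Int3.

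Carbon reserves differed by polymer. Starch transcripts were lower or not called: 3 of 8 synthesis members and 3 of 7 breakdown members fell and 0 rose (medians -0.88 and -0.99). Sobic.010G047700.1, similar to starch synthase SSI, fell from 46.3, 42.1 and 37.2 to 18.3, 16.8 and 18.1 (-1.21 ± 0.14, adjusted p = 1.94e-05). Sobic.002G116000.1, a starch synthase of 127 ± 11.4 in Int1 and 39.6 ± 15.7 in Int3 (-1.74 ± 0.34, adjusted p = 0.000948), kept its call only where Int3 replicate 3 was left out among the 6 fits without a library. The summed RPKM of the starch synthesis list was 245 to 284 in Int1 and 102 to 135 in Int3.

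In sucrose metabolism, 4 of 12 members were higher and 1 lower (median 0.83), with 2 higher where Int1 replicate 1, Int1 replicate 3, Int3 replicate 1 or Int3 replicate 2 was left out. Sobic.010G072300.1, a sucrose synthase, which splits sucrose into UDP-glucose and fructose, was at 156, 175 and 145 in Int1 and 337, 321 and 301 in Int3 (1.01 ± 0.16, adjusted p = 0.000202), at the fold limit. It lost its call in 4 of these fits. Of 13 trehalose members, which make and dephosphorylate the sugar signal trehalose 6-phosphate, 7 were higher and 0 lower (median 1.57). Sobic.004G293500.3, a trehalose-6-phosphate phosphatase, went from 0.12, 0.18 and 0.18 to 28.4, 36.6 and 35.4 (5.68 ± 0.21, adjusted p = 1.71e-08) and on to a mean of 93.8 in Int4. Sobic.004G293500.5 of the same locus rose as well, by 4.67 on the log2 scale. For callose, the glucan of cell plates and plasmodesmata, 2 of 7 members were lower and 1 higher, with 1 lower in 5 of the 6 fits without a library. Sobic.010G275800.1, a callose synthase, was at 183, 177 and 193 in Int1 and 93.6, 73.4 and 63.9 in Int3 (-1.27 ± 0.21, adjusted p = 0.000336), and Sobic.001G085200.2, a callose-binding protein of plasmodesmata, fell from 5.69, 7.53 and 8.46 to 0.14, 0.27 and 0.41 (-3.32 ± 0.24, adjusted p = 6.92e-07).

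Amino acid synthesis had calls in both directions. Of 57 members, 14 were higher and 18 lower (median 0.15). Sobic.006G066200.1, an arogenate dehydratase of phenylalanine synthesis, rose from 6.37, 6.34 and 6.58 to 48.7, 55.8 and 59.3 (2.99 ± 0.14, adjusted p = 4.96e-08). Sobic.006G235500.1, a shikimate kinase, rose from 22.4, 23.7 and 30.1 to 82.6, 85.2 and 184 (2.09 ± 0.27, adjusted p = 4.68e-05). It was the only 1 of 3 shikimate kinase members with a call. The chorismate mutase member was not called (log2 fold change 0.848), and the tryptophan categories had calls in both directions. S-adenosylmethionine synthetase, which makes the methyl donor used by the lignin O-methyltransferases, rose in Sobic.009G033600.1 from 492, 487 and 443 to 945, 1047 and 1478 (1.26 ± 0.18, adjusted p = 8.43e-05). Its paralogue Sobic.003G151600.1 rose from 218, 199 and 171 to 528, 509 and 489 (1.38 ± 0.14, adjusted p = 6.8e-06).

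Transcripts of the lysine and threonine branch fell. Sobic.001G081900.1, an aspartate semialdehyde dehydrogenase at the entry to lysine and threonine, fell from 34.5, 37.5 and 38.4 to 9.89, 8.97 and 4.54 (-2.23, adjusted p = 0.000109). Sobic.007G171200.1, a dihydrodipicolinate reductase of lysine synthesis, fell from 21.1, 26.2 and 23.0 to 5.93, 4.84 and 3.63 (-2.19, adjusted p = 2.49e-05). Sobic.009G220000.2, a threonine synthase, fell from 15.5, 16.8 and 17.4 to 4.3, 3.69 and 3.13 (-2.03, adjusted p = 4.1e-07). In amino acid breakdown, 5 of 22 members were higher and 7 lower, with 3 higher without Int1 replicate 1, Int1 replicate 3 or Int3 replicate 3. Sobic.006G243200.1, an L-asparaginase, which releases ammonium from stored asparagine, fell from 27.4, 19.2 and 24.5 to 3.56, 3.94 and 1.68 (-2.82 ± 0.35, adjusted p = 3.77e-05).

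Lipid transcripts had no single direction. In fatty acid synthesis and elongation, 12 of 36 members were higher and 13 lower (median -0.47). All 3 members annotated as acyl carrier protein thioesterases, which release fatty acids from the plastid, were higher, among them Sobic.004G088100.1 from 8.81, 8.61 and 7.7 to 63.1, 78.0 and 50.6 (2.84 ± 0.20, adjusted p = 6.15e-07). Of 4 acyl carrier proteins 3 were lower, as in Sobic.009G119900.1, similar to a mitochondrial form, from 108, 113 and 106 to 48.4, 58.6 and 48.1 (-1.08 ± 0.11, adjusted p = 6.11e-06), a call lost on median-ratio scaling. Phospholipid synthesis had 9 of 14 members higher and 1 lower (median 1.76), the fall being lost without Int1 replicate 1, Int1 replicate 2, Int3 replicate 2 or Int3 replicate 3 and on median-ratio scaling, and lipases and phospholipases 17 of 39 higher and 6 lower (median 0.94). Sobic.008G030700.1, a lipid transfer protein, was at 0.27, 0 and 0 in Int1 and 12.7, 20.3 and 29.2 in Int3 (5.12 ± 0.31, adjusted p = 2.31e-07), with a mean of 99.9 in Int4. In total 4 of 10 lipid transfer members were higher and 0 lower, while in sphingolipid and sterol metabolism 6 of 20 were higher and 2 lower, and in beta-oxidation 3 of 10 were higher and 0 lower.

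In the tricarboxylic acid (TCA) cycle and mitochondrial electron transport, 12 of 30 members were lower and 3 higher (median -0.75), with 9 lower after median-ratio scaling. All 4 transcripts annotated as mitochondrial ATP synthase were lower, as in Sobic.009G209900.1 from 27.9, 30.4 and 31.0 to 9.99, 12.9 and 13.2 (-1.28, adjusted p = 3.68e-06). Sobic.003G143700.1, similar to ATP-citrate lyase, which forms acetyl-CoA from citrate in the cytosol, went the other way, from 108, 100.5 and 92.5 to 238, 200.3 and 289 (1.26 ± 0.17, adjusted p = 6.5e-05). In glycolysis 7 of 20 members were lower and 4 higher (median -0.72), but 3 to 5 were lower in the 6 fits without a library. The abundant Sobic.004G205100.1, a cytosolic glyceraldehyde 3-phosphate dehydrogenase, was at 306, 304 and 285 in Int1 and 161, 159 and 195 in Int3 (-0.80 ± 0.13, adjusted p = 0.000269), below the fold limit.

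Lists that stand for other tissues moved between the internodes as well. Of 25 photosynthesis members, which would be abundant in green leaf tissue, 5 were higher and 2 lower (median 0.85), with 3 higher where Int1 replicate 1, Int1 replicate 3 or Int3 replicate 2 was left out, 7 without Int3 replicate 1, 6 without Int3 replicate 3, and 7 higher and 1 lower after median-ratio scaling. Their summed RPKM was 363 to 405 in Int1 and 485 to 588 in Int3, without overlap, as in every list but the isoprenoids. Of the 5 called rises, 3 were of photorespiration, 1 of photosystem I and 1 of the Calvin cycle, and both called falls were of the Calvin cycle category. Sobic.008G039900.1, similar to the P protein of glycine decarboxylase, went from 56.0, 60.8 and 49.9 to 160, 146 and 183 (1.54 ± 0.16, adjusted p = 9.92e-06). Of 5 wax members, which mark the epidermis, 1 was higher and 2 lower, and their summed RPKM was 37.6 to 38.6 in Int1 and 19.3 to 24.4 in Int3, without overlap. Of the 5, 2 had a log2 fold change above 0, the highest at 2.65, and 3 had one below 0. Sobic.006G144500.1, similar to CER1 of wax synthesis, was at 2.92, 2.33 and 2.36 in Int1 and 1.32, 1.4 and 1.71 in Int3, without a call. No Int3 library was at 0 for Sobic.006G144500.1 or for Sobic.004G064000.1, the wax transcript among the largest falls. The part of epidermis or green tissue in the other differences was not tested. The lignin, cellulose synthase and expansin lists, which fit stem tissue, were measured in every library.

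In the isoprenoid list, 5 of 22 members were lower and 2 higher, and its summed RPKM overlapped between the internodes, at 440 to 484 in Int1 and 433 to 502 in Int3. With median-ratio scaling 2 were lower and 3 higher. Sobic.007G207600.1, similar to HMG-CoA reductase of the mevalonate pathway, fell from 90.7, 89.6 and 65.4 to 36.7, 30.6 and 35.8 (-1.23 ± 0.15, adjusted p = 3.23e-05). Metal handling had 8 of 23 higher and 7 lower. Its metallothionein, Sobic.003G071901.1, a small cysteine-rich metal-binding protein, was the most abundant annotated transcript of Int1, at 1611, 2084 and 2321, and fell to 521, 707 and 414 in Int3 (-1.89 ± 0.25, adjusted p = 5.98e-05), with a mean of 1170 in Int4.

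**Figure D5:**
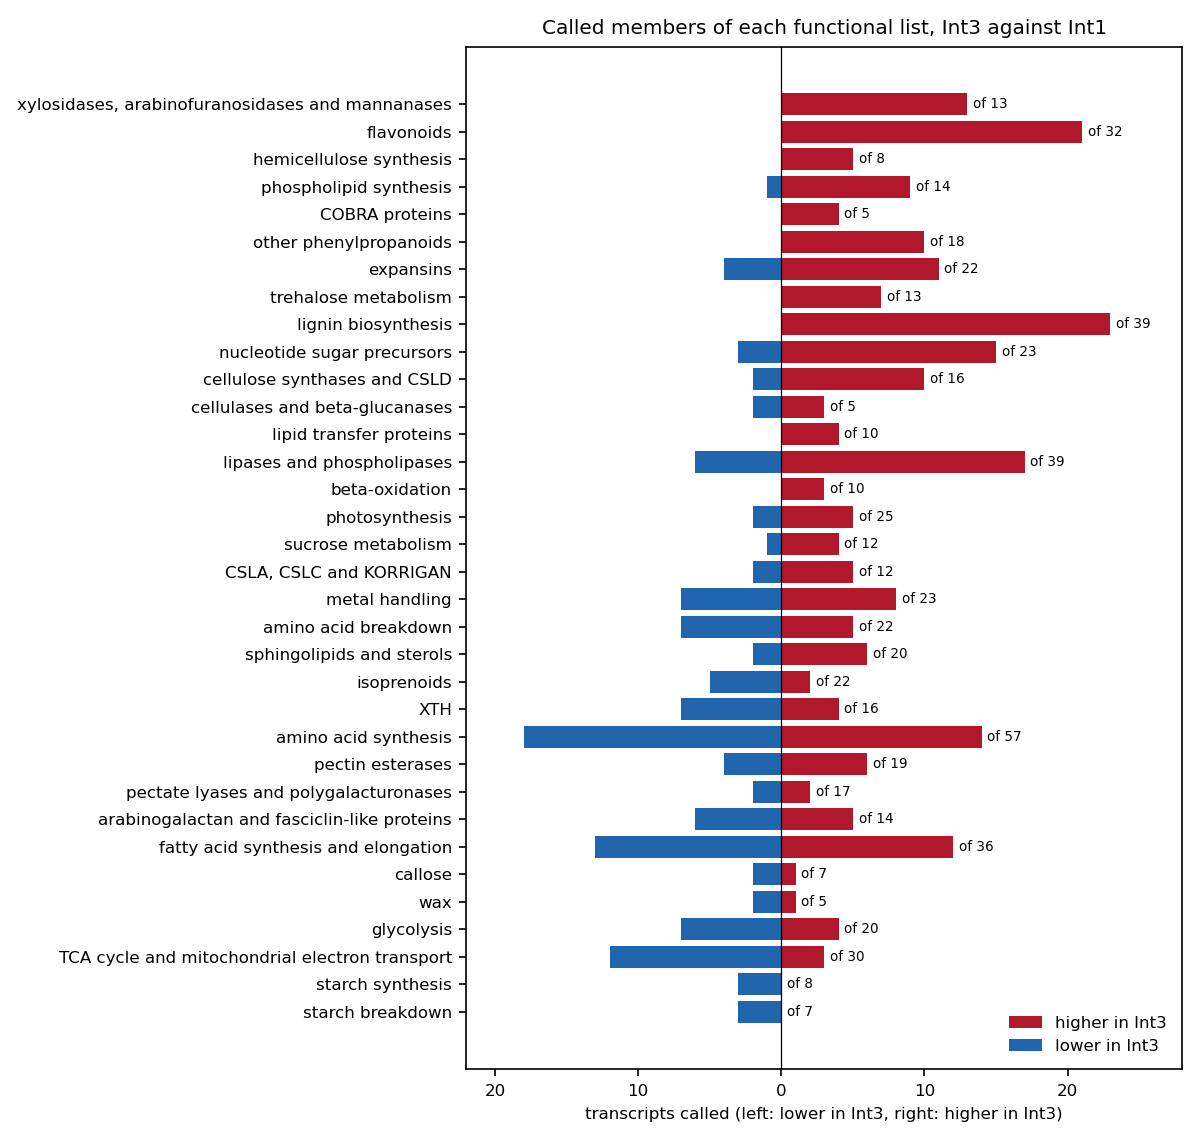
Number of members called lower (blue, to the left) and higher (red, to the right) in Int3 for each of the 34 lists, ordered by median log2 fold change, with the number of members of each list beside its bar. The longest red bars are lignin biosynthesis (23 of 39) and flavonoids (21 of 32), and the longest blue bar is amino acid synthesis (18 of 57).

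The most abundant transcripts were largely shared by both internodes. The 10 transcripts with the highest mean took 2.72 to 3.07% of the summed RPKM of an Int1 library and 3.46 to 3.54% of an Int3 library, and 7 transcripts were among the 10 in both internodes. Sobic.008G136000.1 was at 2197, 2144 and 2100 in Int1 and 2211, 2218 and 2119 in Int3, and Sobic.004G006300.1 at 2367, 2380 and 2282 against 1794, 2139 and 1922, neither with a call (adjusted p = 0.874 and 0.0735). Sobic.008G082400.1, which carried no annotation, was the most abundant transcript in Int3, at 3139, 2657 and 2697 against 1277, 1197 and 926 in Int1 (1.33 ± 0.14, adjusted p = 1.08e-05).

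The transcripts that the study also followed by quantitative PCR were looked up by the same rule. Of these 10 transcripts, 6 were higher, 2 lower and 2 not called, while 19.0% of all members were called. The study took the 10 from its differentially expressed genes in these same libraries, so their calls are not independent evidence. Sobic.001G494000.1 had the largest rise, from 0.21, 0.4 and 0.31 to 24.5, 22.0 and 24.7 (4.91 ± 0.28, adjusted p = 1.71e-07), and Sobic.003G328500.1 the largest fall, from 64.1, 67.8 and 75.9 to 6.87, 4.46 and 4.13 (-3.65 ± 0.45, adjusted p = 3.5e-05). The 2 without a call were low: Sobic.006G170300.1 at 1.13, 1.03 and 1.08 in Int1 and 1.58, 3.29 and 2.9 in Int3, and Sobic.003G300800.1 at 0.83, 0.76 and 1.18 in Int1 and 3.68, 3.21 and 1.28 in Int3. In both, every Int3 value was above the highest Int1 value, but the Int3 libraries differed widely among themselves.

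Presence in the table also differed between the internodes. There were 71 members listed at 0 in all 3 Int1 libraries, of which 26 were called higher. They were members only through their level in Int3, so their direction was fixed by the membership rule. Their share called is therefore not comparable with the 9.36% called higher over all members. The highest of these 71 reached a mean RPKM of 23.0 in Int3. No member was listed at 0 in all 3 Int3 libraries (0 of 25338). An RPKM of 0 cannot be read as absence, since the reads behind a value are unknown. Called transcripts came from 4539 loci, and 10744 members belonged to loci with at least 2 transcripts in the table, where reads could be divided between transcripts.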

How the data were processed

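Polyadenylated RNA of the internodes was sequenced with the Illumina TruSeq kit on a HiSeq instrument. The authors aligned the reads to the Sorghum bicolor v3.1 transcripts in the CLC Genomics Workbench and deposited RPKM values, rounded to hundredths, for 12 libraries in 1 table. The versions and settings of that alignment are not given in the sources used here. Since these are not counts, the table was tested on log2(RPKM + 0.5) with limma 3.58.1 in R 4.3.3 (empirical Bayes with a trend), fitting a mean for each internode over 12 libraries to 26320 transcripts, with 8 residual degrees of freedom and Benjamini-Hochberg adjustment over all of them. Every adjusted p in the text is from this fit and is two-sided. The script was tested on simulated data first. Summaries and figures used Python 3.11.15, pandas 2.3.3 and matplotlib 3.10.9.

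Libraries were grouped by the internode number in their labels. The labels do not say whether same-numbered libraries share a plant, so p-values measure the spread between these libraries, which is taken as independent. Annotations are those of the nearest Arabidopsis gene in the study's category table, and roles are those known in Arabidopsis or in plants generally; no identifier matched the gene table at hand, and no sequence was printed. The members and lists were chosen with earlier results of these data known. Named transcripts were the 10 largest rises and 10 largest falls, the 4 most abundant members and the 2 called members with the largest change of each list, the 10 most abundant transcripts of each internode, the 10 of the quantitative PCR primer table and loci with calls in both directions. Others named in the text were chosen after their values were seen. Lists planned as words in gene descriptions could not be used, since the table holds none, and were replaced by the study's categories. Certain items are not reported here. Alternatives were other pseudocounts, filters, thresholds, scaling and weights, a fit to 6 libraries, a replicate term and leaving out each library.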

Additional observations from a re-analysis of the deposited data

How the results depend on the processing

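Under every alternative the 4811 calls stayed within 1.5 times, except in the fit to the 6 Int1 and Int3 libraries with the replicate number as a block, which called 2499 transcripts, 1417 higher and 1082 lower, of which 2470 were among the 4811, and 264 of the 424 called list members. At an unadjusted p under 0.05 that block fit had 14612 members. It has fewer residual degrees of freedom, and same-numbered libraries did not deviate together (correlations of -0.0338, 0.0495 and -0.144, against -0.0892 to 0.117 between different numbers), so the numbers are not read as pairs. Over 12 libraries the block gave 4438 calls. Leaving out 1 library at a time gave 3867 to 4547 calls, 2021 to 2321 higher and 1830 to 2226 lower, and 348 to 401 list members. The other alternatives gave from 4326 calls (mean RPKM of 2 over both internodes) to 5872 (adjusted p under 0.05). Of 177 called named transcripts, 128 kept their call under every alternative, 37 lost it in the 6-library block, among them Sobic.003G071901.1 (adjusted p = 0.0014) and Sobic.008G082400.1 (adjusted p = 0.0017), 24 lost it without some library, and 0 reversed. The study gives read totals for each internode and not for each library, and the reads behind each RPKM are unknown. The depth that limits low transcripts in a library therefore cannot be given. Further list counts also moved without 1 library, and only examples are given here. Isoprenoids went from 5 to 3 lower (Int1 replicate 2 or 3, Int3 replicate 2 or 3). Glycolysis went from 4 to 2 higher (Int1 replicate 3) and the KORRIGAN list from 2 to 1 lower (any but Int1 replicate 2). Pectate lyases went from 2 to 1 higher (Int1 replicate 2) and wax from 2 to 1 lower (Int1 replicate 3). Arabinogalactan proteins went from 6 to 4 lower (Int1 replicate 2 or 3, Int3 replicate 1 or 3). Their rises went from 5 to 4 without any 1 library. Starch synthesis went from 3 to 2 lower (Int1 replicate 1 or 2, Int3 replicate 1 or 2). COBRA proteins went from 4 to 3 higher (Int1 replicate 2 or 3, Int3 replicate 2 or 3). Lipases went from 17 to 13 higher (Int1 replicate 1 or 3, Int3 replicate 3).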

Other observations

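Leucine-rich repeat proteins of the cell wall, a category not described above, were called in 9 of 10 members, 3 higher and 6 lower in Int3. Of all annotated members, 37.1% were higher and 19.7% lower. They were selected from these same libraries, so the count is not independent evidence of change. Sobic.001G112800.2 fell from 15.1, 18.6 and 19.3 in Int1 to 1.2, 0.71 and 0.55 in Int3 (log2 fold change -3.81 ± 0.21 SE, adjusted p = 1.54e-07). Sobic.010G255000.1, similar to an Arabidopsis leucine-rich repeat extensin that shapes root hairs, fell from 28.3, 31.3 and 28.02 to 5.61, 5.29 and 3.93 (-2.46 ± 0.14, adjusted p = 1.57e-07). Sobic.006G260200.1 rose from 3.23, 5.25 and 1.85 to 28.5, 61.3 and 25.7 (3.29 ± 0.34, adjusted p = 8.94e-06). The most abundant, Sobic.004G215000.1, was at 320, 371 and 373 in Int1 and 280, 261 and 190 in Int3 without a call (adjusted p = 0.0123).

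Glutamine synthetase, which binds ammonium into glutamine, was represented by 5 members, 4 of them transcripts of 1 locus. Of these, Sobic.004G247000.4 rose from 24.8, 34.0 and 22.9 to 126, 91.7 and 190 (2.26 ± 0.27, adjusted p = 2.67e-05), and reads of the locus could be divided between its transcripts. Sobic.001G231000.1 of another locus was at 32.5, 30.9 and 31.2 in Int1 and 29.1, 22.8 and 22.2 in Int3 without a call.

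The calls of neighbouring loci were counted, with no test. Of 2162 loci called higher that had a next member locus on the chromosome, 344 (15.9%) were followed by a locus called higher and 10.4% by a locus called lower, against 11.1% and 11.7% of all 19553 loci. Of 2294 loci called lower, 351 (15.3%) were followed by a locus called lower and 9.81% by a locus called higher. The longest runs held 6 loci called higher, on chromosomes 2 and 9. Neighbouring loci can be near-identical copies between which reads are divided, and this was not tested. Chromosome 5 had 12.7% of its 1281 members called higher and 8.12% lower, while the other chromosomes had 8.61 to 10.1% higher and 9.02 to 11.1% lower.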
